A study of Rattus norvegicus with 12 samples.

Results

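The conducting airways of the rat lung are lined mainly by secretory (club) cells and ciliated cells, and 5 genes that mark these cells are described here. Scgb1a1, Bpifa1 and Cyp2f4 represent the secretory cells, and Foxj1 and Tekt1 the ciliated cells. They were chosen by symbol, through the RefSeq identifier of each measured feature, and are 5 of the 9621 genes that could be named among 26208 features. Each is measured by 1 feature.

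Club cells secrete protective proteins onto the airway surface and carry cytochrome P450 enzymes that metabolise inhaled compounds. Scgb1a1 encodes secretoglobin 1A1, the club cell secretory protein that marks these cells. Bpifa1 (SPLUNC1) encodes an antimicrobial, surface-active protein secreted in the nose, trachea and large bronchi. Cyp2f4 encodes a cytochrome P450 found in rat club cells. Ciliated cells carry motile cilia that move mucus out of the lung. Foxj1 encodes the forkhead transcription factor that switches on the motile cilium genes, together with the RFX factors, and Tekt1 encodes tektin 1, a filament protein inside the microtubule doublets of the cilium.

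Whole lungs of Sprague-Dawley rats were compared between pups with intrauterine growth restriction (IUGR), which the series attributes to a low protein diet, and control pups. At each of postnatal days 4, 10 and 21 there were 2 IUGR arrays and 2 control arrays, 12 in all. RNA came from 14 IUGR and 15 control pups and was pooled by 2 or 3 pups, so each array is a pool and its number (replicate 1 or 2) is a label only. Which pups or litters went into a pool is not recorded. Pools may come from the same litters, and the p-values measure spread between pools. No cells were sorted or dissected, so airway epithelium is a small and possibly variable share of each sample. Values are log2 of the deposited intensity, and a feature's place among all features is given only to show how near it lies to the dim or the bright end of the array, because each gene has its own probes.

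The lung label was borne out by Sftpc, the surfactant protein of alveolar type 2 cells, at 15.31 to 15.48 on the 8 arrays of days 4 and 10. Median intensity on these arrays was 411 to 418. The day 21 arrays were on a scale of their own, with medians of 270.1 to 278, and control day 21 replicate 2 was left out because its values did not follow the order of features (r = 0.09 with the mean of days 4 and 10, against 0.946 to 0.948 for the other 3 arrays). Some pools were high in genes of tissues that adjoin the lung. Summed intensity of 6 measured genes of a list of 10 for heart muscle was 71681 on replicate 2 of day 4 IUGR and 36602 on replicate 2 of day 10 IUGR, against 25427 and 13754 on the other IUGR arrays of these days. The controls had 27479 and 34239 at day 4 and 8763 and 8789 at day 10. Summed intensity of 6 measured fat genes of 9 was 21167 and 30492 on the same IUGR pools, against 4941 and 9045 on the other IUGR arrays and 3330 to 5159 on the controls. No intensity on these arrays is 0, so no marker is absent in that sense. Both pools were therefore also left out together as an alternative. That leaves only the other IUGR pool of each of these days, so the spread in that fit comes from the control pools alone.

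The sequences just before the transcription start are shown for the members that have an entry in RefSeq's GRCr8 promoter table so that the matches named after them can be read in place. Each is the 250 bases before the start, with matches in capitals. The 3 secretory promoters lie at chr1:215409687-215409936 (minus strand), chr3:163087715-163087964 (plus strand) and chr1:91543518-91543767 (plus strand), and that of Tekt1 lies at chr10:57479122-57479371 (minus strand).

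Scgb1a1: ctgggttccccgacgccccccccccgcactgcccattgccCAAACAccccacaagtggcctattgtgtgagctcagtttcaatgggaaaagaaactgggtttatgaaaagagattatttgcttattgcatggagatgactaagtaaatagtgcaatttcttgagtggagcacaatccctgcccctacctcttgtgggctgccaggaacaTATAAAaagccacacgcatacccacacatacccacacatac

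Bpifa1: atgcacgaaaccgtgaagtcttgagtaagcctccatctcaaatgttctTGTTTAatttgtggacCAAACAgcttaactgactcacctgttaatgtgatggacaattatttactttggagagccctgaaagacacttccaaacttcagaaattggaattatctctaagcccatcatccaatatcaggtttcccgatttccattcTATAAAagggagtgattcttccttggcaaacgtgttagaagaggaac

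Cyp2f4: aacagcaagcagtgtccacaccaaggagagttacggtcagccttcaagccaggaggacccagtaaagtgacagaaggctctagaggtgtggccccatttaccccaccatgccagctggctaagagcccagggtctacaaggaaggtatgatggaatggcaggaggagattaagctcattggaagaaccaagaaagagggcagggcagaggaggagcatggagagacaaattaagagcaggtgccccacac

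Tekt1: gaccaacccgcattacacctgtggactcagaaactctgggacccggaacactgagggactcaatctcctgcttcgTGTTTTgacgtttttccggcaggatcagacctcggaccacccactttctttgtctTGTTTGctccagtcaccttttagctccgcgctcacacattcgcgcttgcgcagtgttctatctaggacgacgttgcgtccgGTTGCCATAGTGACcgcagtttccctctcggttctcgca

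The capitals mark a TATA box (TATAAA), a forkhead core (TGTTTN, which reads NAAACA on the other strand), a single RFX site (GTTGCC) and a paired RFX motif (GTNNCC, then any 3 bases, then GNNAC), searched on both strands. The first 6 letters of the paired motif may be a single site, so those motifs can overlap. Scgb1a1 holds TATAAA 41 to 36 bases before its start and Bpifa1 47 to 42 bases before its start. Forkhead cores lie in Scgb1a1, in Bpifa1 at 2 places and in Tekt1 at 2 places. Cyp2f4 holds none of these letters in this window. Tekt1 holds the paired motif 39 to 26 bases before its start. These are matches of letters, not measured binding.

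Over all 27457 promoters of this length, TATAAA was found in 13.1%, the forkhead core in 46.5%, the single RFX site in 9.9% and the paired motif in 3.73%. A list of 28 secretory genes had 21 measured genes, of which 17 had a promoter, and a list of 72 ciliary genes had 25 measured, of which 19 had a promoter. TATAAA was found in 6 of the 17 secretory promoters (35.3%) and in 0 of the 19 ciliary promoters. The forkhead core was found in 8 of the 19 ciliary promoters (42.1%) and in 10 of the 17 secretory promoters (58.8%), on either side of its share in all promoters. The single RFX site was found in 7 ciliary promoters (36.8%) and in 1 secretory promoter. The paired RFX motif was found in 5 of the 19 ciliary promoters (26.3%) and in 1 of the 17 secretory promoters (5.88%). The ciliary promoters with the paired motif are shown side by side as 30 bases each, with the motif in capitals. They belong to Tekt1 (chr10:57479139-57479168, minus strand), Cfap206 (chr5:54095408-54095437, minus strand), Iqcg (chr11:81235276-81235305, plus strand), Spag6l (chr11:97677768-97677797, plus strand) and Zmynd10 (chr8:117098966-117098995, plus strand). The motif begins 39, 46, 46, 64 and 55 bases before the start in that order.

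Tekt1: tgcgtccgGTTGCCATAGTGACcgcagttt

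Cfap206: cctgttcgGTCTCCACGGTTACgcatctgc

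Iqcg: cgcgtcacGTTGCCATAGCTACccattagt

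Spag6l: tgcggtcaGTTGCCCTGGAGACgtatacac

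Zmynd10: gctccctcGTTTCCGTGGCGACgaggactc

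Scgb1a1 was the steadiest of the 3 secretory members. At day 4 it was at 15.32 and 15.24 in IUGR pools, against 15.15 and 15.22 in control pools. At day 10 it was at 15.10 and 15.10 in IUGR pools, against 15.11 and 15.09 in control pools. All 8 values lay within 0.22 (1.17-fold), and only 29 of 26208 features had a higher mean. The brightest feature on these arrays was at 15.64 to 15.69, close above Scgb1a1, and whether the scanner's upper limit narrowed its range was not tested.

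Bpifa1 was the least steady of the 5 members. At day 4 it was at 8.09 and 10.62 in IUGR pools, against 7.66 and 7.97 in control pools. At day 10 it was at 7.52 and 8.52 in IUGR pools, against 7.33 and 8.67 in control pools. The values spanned 3.29 (9.8-fold), and 1 IUGR pool at day 4 stood above all others. Its feature lay in the dimmer part of the array, above 42.2% of features by its mean.

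Cyp2f4 also differed between pools, by less. At day 4 it was at 11.18 and 11.78 in IUGR pools, against 10.79 and 10.54 in control pools. Day 10 values were 10.00 and 10.78 in IUGR pools, against 10.31 and 10.62 in control pools. The span was 1.78 (3.43-fold), and both IUGR pools of day 4 lay above the other 6 values.

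Both ciliary members kept to a narrow range. Foxj1 at day 4 was at 8.15 and 7.99 in IUGR pools, against 8.22 and 7.96 in control pools. Day 10 values were 7.73 and 7.83 in IUGR pools, against 7.94 and 7.81 in control pools. Its span was 0.48 (1.4-fold), with all day 10 values below all day 4 values, and its feature lay above 33.6% of features. Tekt1 at day 4 was at 10.43 and 10.43 in IUGR pools, against 10.58 and 10.28 in control pools. At day 10 it was at 10.08 and 10.31 in IUGR pools, against 10.33 and 10.25 in control pools. Its span was 0.50 (1.41-fold), and days and diets overlapped.

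**Figure D1:**
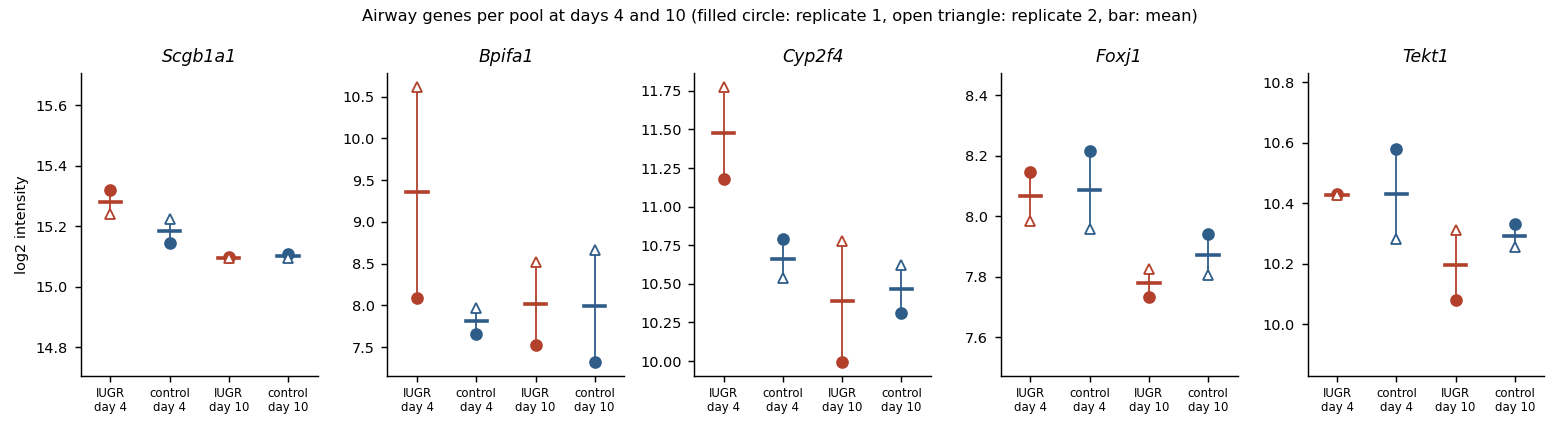
Log2 intensity (vertical axis, with its own range for each gene) of the 5 genes on the 8 arrays of days 4 and 10. Filled circles are replicate 1, open triangles replicate 2 and bars the group means. The day 4 IUGR pools of Bpifa1 lie 2.53 apart, whereas the 8 values of Scgb1a1 lie within 0.22.

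The spread between the pools of 1 group was read as replicate 2 minus replicate 1, and compared with the same gap for all features. For Bpifa1 the gap was 2.53 in the day 4 IUGR group (5.77-fold), and 8 of 26208 features (0.0305%) had a larger one. In the other groups it was 0.998 for day 10 IUGR, 0.31 for day 4 controls and 1.34 for day 10 controls. The last was 2.53-fold and exceeded by 9 features (0.0343%). At day 21 the IUGR pools lay 2.32 apart, with a larger gap in 15 of 10097 features (0.149%). The day 4 control gap was the smallest and was exceeded by 8.07% of features, and both of its values lay near the lower quartile of those arrays (7.67 to 7.71).

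In all 5 of these groups the pool numbered 2 was the higher for Bpifa1. Of all features, 1303 (4.97%) were higher on replicate 2 in all 4 groups of days 4 and 10. In 5 of them (0.0191%) the smallest of the 4 gaps was at least that of Bpifa1, and the 3 with a name were Cyp2a3 (smallest gap 0.59), Scgb3a1 (0.53) and Bpifa1 itself (0.31). Scgb3a1 is a secretoglobin of the large airways, and Cyp2a3 is a cytochrome P450 of rat nasal and lung epithelium. These names were picked out after the values were seen. The labels do not say what a replicate number stands for.

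Scgb3a1 had the widest swings in the secretory list. At day 4 it was at 12.86 and 14.19 in IUGR pools, against 11.82 and 12.35 in control pools. At day 10 it was at 9.91 and 12.09 in IUGR pools, against 8.56 and 11.66 in control pools. Bpifb1, a secreted relative of Bpifa1, was at 9.89 and 10.31 in IUGR pools, against 9.61 and 9.42 in control pools, at day 4. At day 10 it was at 8.34 and 9.39 in IUGR pools, against 8.28 and 8.66 in control pools. Scgb3a1 was picked out above for being higher in the Bpifa1-rich pool of all 4 groups, so that agreement was fixed beforehand. The Bpifa1-rich pool was also the richer in Bpifb1 in all but the day 4 controls.

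Heart muscle genes moved with Bpifa1 in some groups and not in others. In both IUGR groups the Bpifa1-rich pool was also the one with the higher heart sum, and 6 of 6 heart genes were higher there. In day 4 controls the Bpifa1-rich pool had the lower heart sum, 27479 against 34239, and 1 of 6 heart genes was higher there. In day 10 controls the heart sums were 8763 and 8789 in the Bpifa1-rich and the Bpifa1-poor pool, while Bpifa1 differed by 1.34 and Scgb3a1 by 3.10 between them. Cartilage lies in the wall of the large airways, and 7 of its 16 listed genes were measured. Their summed intensity was 2481 in the Bpifa1-rich pool and 1944 in the Bpifa1-poor pool of day 4 IUGR, and 2735 and 3350 at day 10. In controls it was 2515 and 1966 at day 4, and 2229 and 1742 at day 10, in the same order. Of the 7 genes, Col2a1 had the widest gap in each of these groups. It was at 10.00 and 9.40 in day 4 IUGR and at 10.115 and 10.74 in day 10 IUGR, again in that order. In controls Col2a1 was at 10.08 and 9.19 at day 4, and at 9.58 and 8.05 at day 10. The part that heart tissue, fat or the share of large airway in a sample plays in these gaps was not tested.

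**Figure D2:**
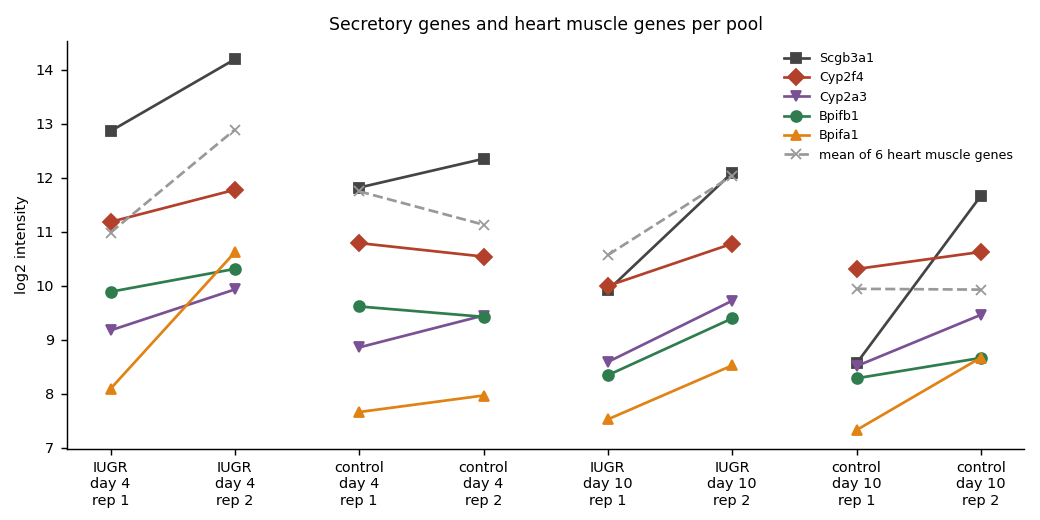
Log2 intensity (vertical axis) of Bpifa1, Bpifb1, Cyp2a3, Cyp2f4 and Scgb3a1 on each of the 8 arrays of days 4 and 10, with the mean of 6 heart muscle genes as a dashed line. Lines join the pools of 1 group only to guide the eye. Scgb3a1 and Bpifa1 are higher in replicate 2 of day 10 controls, where the heart genes are level.

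Cyp2f4 gaps were 0.60 in day 4 IUGR, 0.78 in day 10 IUGR, -0.25 in day 4 controls and 0.32 in day 10 controls. The gap was exceeded by 4.43%, 0.645%, 13.4% and 3.29% of features in that order. Scgb1a1 gaps stayed within 0.08 in every group, near or below the median gap of all features (0.08 to 0.15). Of the 21 secretory genes, 13 were higher in replicate 2 in day 4 IUGR, 18 in day 10 IUGR, 9 in day 4 controls and 15 in day 10 controls.

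Many ciliary genes shared the direction of their gap within a group. In day 4 controls none of the 25 ciliary genes was higher in replicate 2 and Cfap206 was level, with a median of -0.28, against a median gap of 0.10 in either direction over all features. In day 10 IUGR 22 of 25 were higher in replicate 2, with a median of 0.22. The counts higher in replicate 2 were 5 of 25 in day 4 IUGR (median -0.10) and 18 of 25 in day 10 controls (median 0.06). The median gap in either direction was 0.13 for ciliary and 0.21 for secretory genes in day 4 IUGR, and 0.22 and 0.25 in day 10 IUGR. It was 0.28 and 0.21 in day 4 controls and 0.12 and 0.15 in day 10 controls, so neither list had the wider gaps throughout. Tekt1 followed the list in day 4 controls (-0.30) and in day 10 IUGR (0.23), and Foxj1 was at -0.26 and 0.09 there. The general epithelial genes, 10 of 13 measured, had sums of 36713 and 40612 in replicates 2 and 1 of day 4 controls and of 29793 and 30159 in day 10 IUGR.

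**Figure D3:**
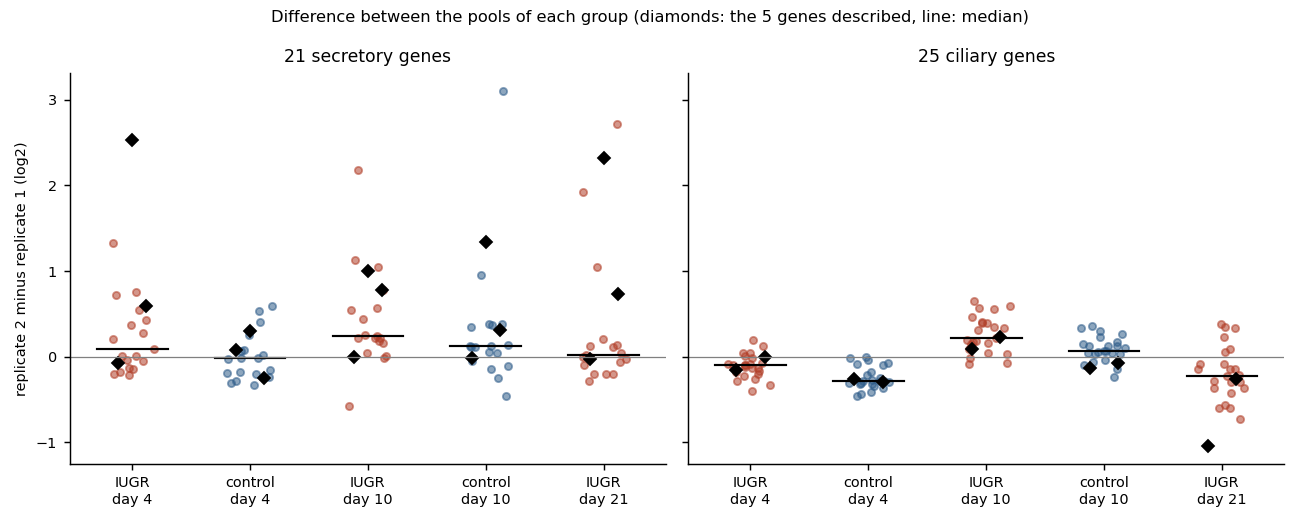
Replicate 2 minus replicate 1 (log2, vertical axis) for 21 secretory genes (left) and 25 ciliary genes (right) in each group with both arrays usable. Each point is a gene, diamonds are the 5 genes described and lines are medians. All 25 ciliary genes lie at or below 0 in day 4 controls, and Bpifa1 is the diamond at 2.53 in day 4 IUGR.

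The first question of the design was whether growth restriction altered these genes. At day 4 Cyp2f4 averaged 11.48 ± 0.42 in IUGR pools and 10.66 ± 0.18 in control pools (SD, n = 2 each). Bpifa1 averaged 9.35 ± 1.79 in IUGR pools and 7.81 ± 0.22 in control pools. Neither difference passed the test, and no feature of the array did at this day. In whole lung, fewer cells of a type and less RNA per cell cannot be told apart, for these and all later values.

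In limma with Benjamini-Hochberg adjustment over all 26208 features, Cyp2f4 differed by 0.82 ± 0.28 (SE), with a 95% interval of 0.17 to 1.46 and an adjusted p of 0.435. Its unadjusted p was 0.0199, and 9.59% of features had an unadjusted p under 0.05. Bpifa1 differed by 1.54 ± 0.78 (95% interval -0.26 to 3.34, adjusted p = 0.565). Without IUGR day 4 replicate 2, the pool high in heart and fat genes, these differences were 0.52 and 0.28. Without IUGR day 4 replicate 1, Bpifa1 differed by 2.81. Each of these fits leaves 1 IUGR pool at day 4, so the spread in that group is not measured.

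Scgb1a1 differed by 0.10 ± 0.08 (adjusted p = 0.73), and its IUGR pools, like those of Cyp2f4 and Bpifa1, lay above both control pools. Such groups that did not overlap, with IUGR higher, made up 18.3% of all features. Foxj1 differed by -0.02 ± 0.11 (95% interval -0.29 to 0.25) and Tekt1 by -0.003 ± 0.12 (95% interval -0.29 to 0.28), with adjusted p of 0.968 and 0.996. Without control day 4 replicate 1 these differences were 0.11 ± 0.12 and 0.15 ± 0.13, and without control day 4 replicate 2 both were at -0.15, with standard errors of 0.12 and 0.13.

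Among the 21 secretory genes, 17 were higher and 4 lower at day 4, with a median of 0.24, against 0.00 over all features. On average the list stood 0.32 above the mean of day 4 on IUGR replicate 2, the pool high in heart and fat genes, and 0.01 below it on IUGR replicate 1, against 0.16 and 0.15 below it on the control pools. Without IUGR replicate 2, 15 of 21 were higher and the median was 0.13. The part of heart and fat tissue in this shift was not tested. None passed the test, and 3 higher and 2 lower had an unadjusted p under 0.05. The smallest p belonged to Aldh1a1, an aldehyde dehydrogenase that oxidises retinal (0.41 ± 0.10, adjusted p = 0.364). Wfdc2, a secreted protease inhibitor homologue of airway epithelium, followed (0.37 ± 0.12, adjusted p = 0.426). Chad, chondroadherin, which cartilage also makes and which stands in the cartilage list too, was at -0.29 ± 0.11 (adjusted p = 0.458). Among the 25 ciliary genes, 16 were higher, with a median of 0.07. None passed, and Mns1, a protein inside the ciliary doublets, had the smallest p (0.45 ± 0.14, adjusted p = 0.4). The ciliary count was 24 of 25 without control day 4 replicate 1 and 10 of 25 (median -0.09) without control day 4 replicate 2.

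At day 10 the 5 members overlapped between diets, while groups did not overlap in 43.5% of features. Bpifa1 averaged 8.02 ± 0.71 in IUGR pools and 7.996 ± 0.95 in control pools, a difference of 0.03 ± 0.78. Cyp2f4 averaged 10.39 ± 0.55 in IUGR pools and 10.47 ± 0.22 in control pools, a difference of -0.08 ± 0.28. Foxj1 differed by -0.09 ± 0.11, Tekt1 by -0.10 ± 0.12 and Scgb1a1 by -0.01 ± 0.08, and the adjusted p of the 5 genes were 0.903 to 0.998. No feature passed here either, and 7.99% had an unadjusted p under 0.05.

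Of the secretory list 8 of 21 were higher in IUGR at day 10 (median -0.01), and of the ciliary list 17 of 25 (median 0.07). The secretory count was 15 of 21 without IUGR day 10 replicate 1 and 4 of 21 without IUGR day 10 replicate 2. The ciliary count was 21 of 25 and 9 of 25 in that order. Pon1, the paraoxonase, was at 0.36 ± 0.13 (adjusted p = 0.571). Cfap206, a radial spoke protein of the cilium, was at 0.27 ± 0.08 (adjusted p = 0.482) and Lrrc34 at 0.28 ± 0.11 (adjusted p = 0.579).

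Averaged over both days, IUGR minus control was 0.78 ± 0.55 for Bpifa1, 0.37 ± 0.20 for Cyp2f4 and 0.05 ± 0.06 for Scgb1a1. It was -0.06 ± 0.08 for Foxj1 and -0.05 ± 0.09 for Tekt1, with adjusted p of 0.551 to 0.863 over the 5. In the same comparison 10.3% of features had an unadjusted p under 0.05 and none passed the adjusted threshold. Without the IUGR pools high in heart and fat genes the Bpifa1 value was -0.10, with the opposite sign, and the Cyp2f4 value was 0.02. Only the other IUGR pool of each day was left in that fit. Cyp2f4 was at 0.22 ± 0.19 without IUGR day 4 replicate 2 alone and at 0.17 ± 0.17 without IUGR day 10 replicate 2 alone. In the lists, the smallest p belonged to Cfap206 (0.22 ± 0.06, adjusted p = 0.383) and to Gsta3, a glutathione transferase (-0.28 ± 0.10, adjusted p = 0.418).

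The difference between the days' effects was tested directly, as the effect at day 10 minus that at day 4. It was -0.90 ± 0.40 for Cyp2f4 (95% interval -1.81 to 0.02, unadjusted p = 0.054, adjusted p = 0.677) and -1.51 ± 1.10 for Bpifa1 (adjusted p = 0.815). The other 3 members were at -0.10 to -0.07. Aldh1a1 (-0.52 ± 0.15, adjusted p = 0.513) and Wfdc2 (-0.50 ± 0.17, adjusted p = 0.608) stood first in the secretory list. There 18 of 21 values were below 0, against 52.1% of all features and 55.4% of named genes. Without IUGR day 10 replicate 1, 10 of 21 were below 0 and the median was 0.009. An unadjusted p under 0.05 was reached by 7.38% of features and the adjusted threshold by none.

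The second comparison was of age, day 10 minus day 4 over both diets, in which 21.6% of features passed the adjusted threshold and 11.3% did so with a lower and 10.3% with a higher level at day 10. All 5 members had lower means at day 10, and over both diets none of them passed. Several of their neighbours in the airway lists did, with 8 of 25 ciliary genes and 5 of 21 secretory genes lower and 2 secretory genes higher. Of all 9621 named genes, 1327 passed with a lower and 597 with a higher level.

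The mean of Cyp2f4 was 10.43 at day 10 and 11.07 at day 4, which differ by -0.64 ± 0.20 (95% interval -1.10 to -0.19, adjusted p = 0.0532). It passed in 6 of 14 alternatives, with adjusted p of 0.0112 to 0.0418, and its adjusted p reached 0.165 in the others. Those that passed included the fits without both IUGR pools high in heart and fat genes, without IUGR day 4 replicate 1 and without IUGR day 10 replicate 2. Each of these leaves 1 pool in at least 1 group, where the spread is then not measured.

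Day 10 minus day 4 was also read within each diet, a comparison added after seeing the data. In IUGR pools 13% of features passed, 6.16% with a lower level, and in control pools 4.28% and 1.99%. Cyp2f4 fell by 1.09 ± 0.28 in IUGR pools (adjusted p = 0.0419) and was at -0.20 ± 0.28 in control pools (adjusted p = 0.764). The difference between the diets is the difference of effects given above, which did not pass. The call in IUGR pools held in 8 of 14 alternatives. It was lost without IUGR day 4 replicate 2 (-0.79 ± 0.30, adjusted p = 0.132), without IUGR day 10 replicate 1 (-0.70 ± 0.26, adjusted p = 0.198) and without any 1 of the 4 control arrays (adjusted p of 0.0683 to 0.072). Without both IUGR pools high in heart and fat genes, 1 of the alternatives in which the call held, the IUGR value was -1.19. That fit has 1 IUGR pool at each day, so its spread comes from the control pools alone.

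Bpifa1 was at -1.33 ± 0.78 in IUGR pools (adjusted p = 0.295) and 0.18 ± 0.78 in control pools (adjusted p = 0.933). The IUGR value was -2.59 without IUGR day 4 replicate 1 and -0.07 without IUGR day 4 replicate 2, with 1 IUGR pool left at day 4 in each case. The control value was -0.49 ± 0.92 without control day 10 replicate 2. The other 3 members were at -0.29 to -0.18 in IUGR pools and -0.21 to -0.08 in control pools, and none of them passed in either diet.

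The mean of Foxj1 was 7.83 at day 10 and 8.08 at day 4, which differ by -0.25 ± 0.08 (adjusted p = 0.0637). Its days did not overlap, as was so for 13.1% of all features with day 10 lower. It passed in 3 of 14 alternatives, of which 1 left out replicate 2 of day 4 IUGR (adjusted p = 0.0494) and 1 left out replicate 2 of day 4 controls (0.0476). The mean of Tekt1 was 10.24 at day 10 and 10.43 at day 4, which differ by -0.19 ± 0.09 (adjusted p = 0.171).

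The mean of Scgb1a1 was 15.10 at day 10 and 15.23 at day 4, which differ by -0.13 ± 0.06 (adjusted p = 0.132), with no overlap between days. Bpifa1 differed by -0.57 ± 0.55 (adjusted p = 0.505), which became -1.21 without IUGR day 4 replicate 1 and 0.06 without IUGR day 4 replicate 2.

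Among the ciliary genes 23 of 25 had lower means at day 10, with a median of -0.25, against 55.1% of all features and a median of -0.02. Of all named genes 61.9% were lower, with a median of -0.05. Kif27, a kinesin of the cilium, fell by 0.65 ± 0.11 (adjusted p = 0.00618). Tekt2, a tektin like Tekt1, fell by 0.60 ± 0.10 (adjusted p = 0.00696), and was at 9.61 and 9.83 in day 10 IUGR pools and 9.47 and 9.73 in day 10 control pools, against 10.48 and 10.32 in day 4 IUGR pools and 10.28 and 9.97 in day 4 control pools. No day 10 pool reached the lowest day 4 pool. Iqcg, a part of the nexin-dynein regulatory complex, fell by 0.52 ± 0.14 (adjusted p = 0.0369), and Rsph1, a radial spoke head protein, fell by 0.48 ± 0.13 (adjusted p = 0.0344).

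Cfap206 fell by 0.43 ± 0.06 (adjusted p = 0.00322), Zmynd10, a dynein assembly factor, by 0.42 ± 0.11 (adjusted p = 0.0294), Ccdc146 by 0.37 ± 0.06 (adjusted p = 0.00439) and Tekt4 by 0.37 ± 0.10 (adjusted p = 0.0317). Deup1, which builds the centrioles of ciliated cells, was at -0.36 ± 0.16 (adjusted p = 0.143) and is with Foxj1 the only one measured of 13 listed regulators of ciliogenesis. Without both IUGR pools high in heart and fat genes 23 of 25 ciliary genes were lower (median -0.32), with the spread taken from the control pools alone. The count of ciliary genes that passed, 8 in the full fit, moved in both directions when an array was left out. It was 4 without control day 4 replicate 1, IUGR day 10 replicate 1, control day 10 replicate 1 or control day 10 replicate 2, and 5 without IUGR day 4 replicate 1. Of the genes with the paired RFX motif, Cfap206, Iqcg and Zmynd10 passed, and Tekt1 and Spag6l (-0.29 ± 0.15) did not. Kif27, Tekt2, Rsph1, Ccdc146 and Tekt4 passed too and are not among the genes found with the motif, though not every ciliary gene had a promoter. A link between the motif and the change with age was not tested.

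Among the secretory genes 15 of 21 had lower means at day 10 (median -0.14), against 61.9% of all named genes (median -0.05). Within IUGR pools 17 of 21 were lower (median -0.33), against 55.2% of all features and 61.8% of named genes. Of the list, 5 fell and 1 rose past the threshold. Within control pools 11 of 21 were lower (median -0.08), against 52.9% of all features and 58.5% of named genes. Here 1 fell and 1 rose past the threshold. The difference between the diets was not tested for the list. The number lower past the threshold in IUGR pools was smaller in several fits with an array left out. Without both IUGR pools high in heart and fat genes 16 of 21 were lower in IUGR (median -0.46), with the spread taken from the control pools alone. Over both diets Bpifb1 fell by 1.14 ± 0.22 (adjusted p = 0.0115) and Hp, haptoglobin, by 0.82 ± 0.08 (adjusted p = 0.000953). Krt15, a keratin of basal cells as well, fell by 0.49 ± 0.13 (adjusted p = 0.0356), Wfdc2 by 0.46 ± 0.09 (adjusted p = 0.00996) and Scgb3a2, a secretoglobin of small airways, by 0.39 ± 0.08 (adjusted p = 0.014). Scgb3a1 had the lowest value, -2.25 ± 0.73, with a wide error (adjusted p = 0.0639).

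Pigr, the receptor that carries immunoglobulin A across the epithelium, rose by 0.49 ± 0.10 (adjusted p = 0.0119), and Chad rose by 0.31 ± 0.08 (adjusted p = 0.0269). Without both IUGR pools high in heart and fat genes 15 of 21 secretory genes were lower (median -0.19), with the spread taken from the control pools alone. The count of secretory genes lower past the threshold was 8 with an intensity trend in the prior. It was below that of the full fit without control day 4 replicate 1, control day 10 replicate 1 or IUGR day 10 replicate 1. The count higher was 1 when either control pool of day 4, either IUGR pool of day 10 or control day 10 replicate 2 was left out.

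Lists of other epithelial cells moved in both directions with age. All 7 measured of 10 alveolar type 2 genes had lower means (median -0.44) and 5 passed, among them Sftpb (-0.62 ± 0.07, adjusted p = 0.00149). Of 10 general epithelial genes 7 had lower means and 5 passed. Of 12 neuroendocrine genes 10 had lower means and 3 passed. Of 7 genes of airway epithelial fate 5 had lower means and 2 passed, and of 9 secreted airway defence genes 6 had lower means and 3 passed. Every call in these lists was lower. Of 8 alveolar type 1 genes 6 had higher means (median 0.06), with Akap5 past the threshold (0.36 ± 0.09, adjusted p = 0.0324) and Hopx lower (-0.27 ± 0.07, adjusted p = 0.0368). Of 5 goblet cell genes 3 had higher means and Tff3 passed (0.36 ± 0.06, adjusted p = 0.00673), and of 7 basal cell genes 3 had higher means and Krt14 passed (0.26 ± 0.08, adjusted p = 0.0469). The summed intensity of the alveolar type 2 genes was 94182 to 99790 at day 10 and 113431 to 121928 at day 4. The part that the share of epithelium in the lung plays in the airway genes was not tested.

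**Figure D4:**
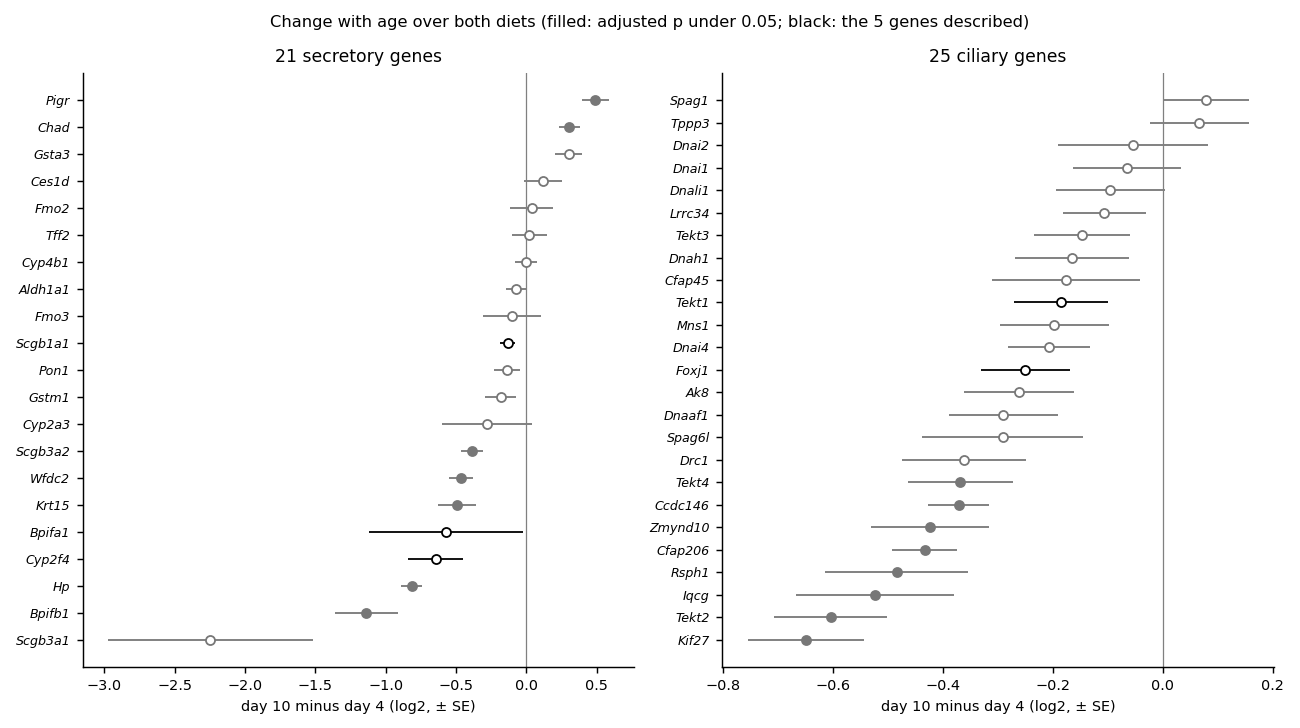
Day 10 minus day 4 over both diets (log2, horizontal axis, bars are standard errors) for 21 secretory genes (left) and 25 ciliary genes (right). Filled points passed an adjusted p of 0.05, black marks the 5 genes described and the panels have their own scales. Of the ciliary genes 23 lie below 0 and 8 are filled, while Cyp2f4 and Foxj1 are open.

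Day 21 was read on its own scale from 2 IUGR pools and 1 control pool, so its spread comes from the IUGR pools alone. Scgb1a1 was at 15.41 and 15.38 in IUGR pools, against 15.42 in the control pool. Bpifa1 was at 6.40 and 8.72 in IUGR pools, against 7.36 in the control pool, which lay between them. Cyp2f4 was at 10.84 and 11.57 in IUGR pools, against 10.91 in the control pool. Foxj1 was at 5.87 and 4.82 in IUGR pools, against 5.31 in the control pool. Its feature was near the dim end, above 22.3% of the features read at day 21, whose lower quartile was 5.67 to 5.70. Tekt1 was at 10.04 and 9.79 in IUGR pools, against 9.69 in the control pool.

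The differences at day 21 were -0.03 ± 0.23 for Scgb1a1, 0.20 ± 0.95 for Bpifa1, 0.30 ± 0.37 for Cyp2f4, 0.03 ± 0.47 for Foxj1 and 0.23 ± 0.25 for Tekt1. Each had an adjusted p of 1 in limma, where 0.0099% of features (1 of 10097) passed and 5.46% had an unadjusted p under 0.05. On simulated data of this size none of 100 features changed by 1 or by 2 on the log2 scale was recovered, so a p above the threshold says little here. Ciliary genes were higher in 22 of 25 and secretory genes in 16 of 21 (medians 0.22 and 0.20), against a median of 0.00 over all features. None of them passed. Levels at day 21 cannot be set against those of days 4 and 10, because age and scale cannot be told apart.

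The heart sum at day 21 was 55995 in the IUGR pool higher in Bpifa1 and 9606 in the other, against 33276 in the control pool. The fat sum was 4219 and 3577 in the same IUGR pools, against 27220 in the control pool. Scgb3a1 was at 8.40 and 11.12 in IUGR pools, against 7.91 in the control pool, and again stood higher in the pool with more Bpifa1. The ciliary genes leaned the other way, with 6 of 25 higher in that pool, against 4137 of all 10097 features. Of 10 general epithelial genes 3 were higher there.

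**Figure D5:**
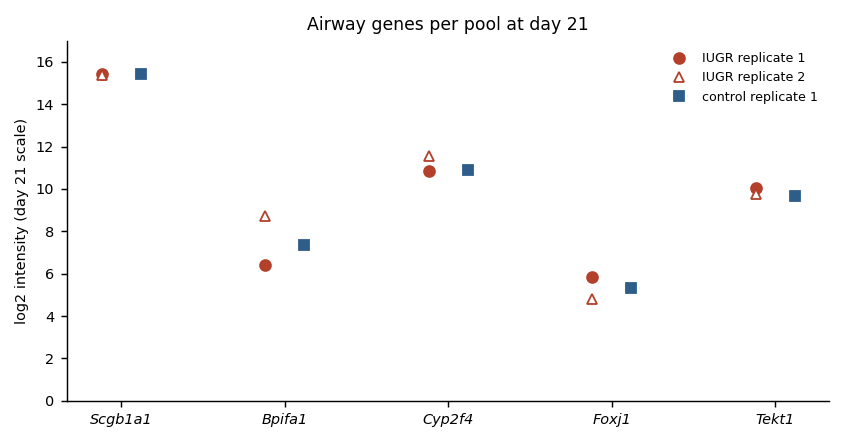
Log2 intensity (vertical axis, scale of the day 21 arrays) of the 5 genes on 2 IUGR pools and 1 control pool. Circles and triangles are IUGR replicates 1 and 2 and squares the control pool. The IUGR pools lie 2.32 apart for Bpifa1 and 0.03 apart for Scgb1a1.

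The genes most like each member were ranked by Pearson's r over the 8 arrays of days 4 and 10 after each day's mean was taken out, among 9620 other genes. The arrays share their tissue and their pools, so r describes these arrays only. Bpifa1 was most like Sln, sarcolipin of atrial muscle and 1 of the heart genes (r = 0.987), Kcna3 (0.983) and Fgf16 (0.976). Like Bpifa1, each of these was highest on IUGR day 4 replicate 2 (10.22, 7.54 and 8.77), so that array weighs heavily in r. Kcna3 stayed at 7.34 to 7.54, at the dim end of the array. Cyp2f4 was most like Ppia (0.987), Gpx4 (0.97) and Tmod1 (0.968).

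Scgb1a1 was most like Zbtb43 (0.973), Or8b37 (0.969) and Ccl9 (0.967), on a range of 0.22 in its own values. Foxj1 was most like Pklr (0.984), Cdk2 (0.973) and Gad2 (0.968), and Tekt1 most like Nudt22 (0.982), Hcn2 (0.982) and Mtg2 (0.966). None of these genes is in the secretory or the ciliary list.

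Against whole lists, the median r of Tekt1 with the other ciliary genes was 0.517, and that of Foxj1 was 0.332, while r between Foxj1 and Tekt1 was 0.841. The median r of Bpifa1 with the other secretory genes was 0.553 and that of Cyp2f4 was 0.6, and Scgb1a1 had 0.166. With the 6 heart genes, Bpifa1 had a median r of 0.607 and Cyp2f4 of 0.563. With the 6 fat genes it was 0.646 for Bpifa1.

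Relatives of the members differed in how far they stood above the dim end of the array, whose lower quartile was 7.67 to 7.71 on days 4 and 10. Of the 6 secretoglobin genes measured, Scgb1d2, Scgb1d4 and Scgb2a1 stayed at 7.09 to 7.60, and Scgb3a2 ranged over 13.49 to 14.21. Of 5 BPI fold genes measured, Bpifa2 ranged over 7.07 to 7.47 and Bpifa2f over 7.42 to 8.17. Between days 4 and 10 Bpifb5 rose by 0.47 ± 0.11 (adjusted p = 0.0204), while Bpifb1 fell and Bpifa2 (0.22 ± 0.08), Bpifa2f (-0.07 ± 0.17) and Bpifa1 did not pass. Of the tektins, Tekt2 and Tekt4 fell between days 4 and 10, and Tekt1, Tekt3 (-0.15 ± 0.09), Tekt5 (-0.13 ± 0.06) and Tektl1 (-0.15 ± 0.10) did not pass.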

How the data were processed

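Whole rat lung RNA was hybridised to 12 one-colour NimbleGen arrays. The values deposited by the authors are linear intensity, 1 per feature, and the submitters' processing notes name RMA and nothing else. Its version and settings are not given in the sources used here. The number of arrays limits the precision. Features were named through RefSeq identifiers in the GRCr8 gene table (9731 matched 1 symbol, 16477 matched none), with the brightest feature kept where a gene had several.

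Values were taken to log2 without further normalisation. The 8 arrays of days 4 and 10 were fitted with limma (version 3.58.1, R version 4.3.3), each group with its own mean, which left 4 residual degrees of freedom beside a prior of 3.79. Day 21 was fitted apart on the 10097 features with NM identifiers of 3 arrays (1 residual degree of freedom), since the other 16111 features (XM identifiers) were out of order there (r = 0.02). P-values were adjusted by Benjamini-Hochberg over all features, with a threshold of 0.05. On simulated data for day 4, the fit found 77 of 100 features that differed by 1 on the log2 scale and 98 of 100 that differed by 2, and called 8 others falsely among 26208. The changed features were drawn from the whole array, with independent noise. These rates need not hold for features with a wide spread, such as Bpifa1 and Cyp2f4 (standard errors of 0.78 and 0.28 at day 4).

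The 5 members were always named. From the secretory, ciliary and ciliogenesis lists, genes past the threshold were named, or otherwise up to 4 with the smallest p, and relatives and genes of other tissues were given beside a member. The members, lists and this rule were chosen with earlier results of these data known. The fits were repeated without the dimmest 30% of features, after median centring, after quantile normalisation, with an intensity trend in the prior, with the replicate number as a block and without each array. Leaving out both IUGR pools high in heart and fat genes was added after seeing the data. The check of replicate numbers is given with the alternatives. Python 3.11.15 searched the promoters.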

Additional observations from a re-analysis of the deposited data

How the results depend on the processing

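Of 524 values of the 5 genes under alternatives, 476 were counted as unchanged. For tested values this means the same side of the threshold and the same direction. An intensity trend in the prior, the replicate block and removal of dim features leave the value itself as it was, so direction cannot turn there. Another 29 turned direction, 6 lost the call (Cyp2f4 with age in IUGR pools) and 13 newly passed. Of those 13, all in comparisons of age, Scgb1a1 passed with an intensity trend over both diets (adjusted p = 0.0277) and in IUGR pools (0.045). None of the turned values passed, and the cause was not tested. At day 4, Tekt1 turned to 0.003 with quantile normalisation, 0.009 with median centring and Foxj1 to 0.06 without both IUGR pools high in heart and fat genes. With each array left out, Foxj1 ranged over -0.15 to 0.11 and Tekt1 over -0.15 to 0.15 at day 4. At day 10, Scgb1a1 was 0.001 with median centring, and Bpifa1 was -0.47 without both IUGR pools. With each array left out at day 10, Bpifa1 ranged over -0.64 to 0.70, Cyp2f4 over -0.47 to 0.31, Tekt1 over -0.21 to 0.021 and Scgb1a1 over -0.012 to 0.002. For the mean of both days these ranges were -0.12 to 0.008 for Foxj1 and -0.12 to 0.025 for Tekt1, and Bpifa1 was -0.10 without both IUGR pools. For the difference of effects they were -0.20 to 0.055 for Foxj1 and -0.24 to 0.056 for Tekt1, and for age -1.21 to 0.059 for Bpifa1. For age in control pools Tekt1 ranged over -0.29 to 0.01 and Bpifa1 over -0.49 to 0.85. With all 4 day 21 arrays as filed, Scgb1a1 was 1.30, Bpifa1 -1.73, Foxj1 -2.27 and Tekt1 -0.063. With 1 IUGR pool at day 21, which allows no test, Bpifa1 was -0.96 or 1.36, Foxj1 -0.49 or 0.55 and Cyp2f4 -0.06 or 0.67. These are counted among the 476 by a rule that such fits cannot fail, although the negative values have the opposite sign to the full fit. Foxj1 has no value at day 21 without the dimmest 30% of features.

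Features past the threshold numbered 0 at day 4, against 1 with an intensity trend, 60 without both IUGR pools and 0 to 644 with each array left out. At day 10 leaving out an array gave 0 to 2. For the mean of both days the count was 0, against 29 without both IUGR pools and 0 to 166 with each array left out, and for the difference of effects 11 and 0 to 152. For age it was 5669, against 2610 to 6798, in IUGR pools 3405 against 504 to 4259, and in control pools 1123 against 7 to 2264, 2997 without both IUGR pools and 729 with the replicate block. At day 21 it was 1, against 0 with quantile normalisation, 0 with median centring, 62 with an intensity trend and 0 with all 4 arrays as filed.

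The samples were taken as unpaired, since the labels do not say what a replicate number stands for. The gaps between pools correlated at -0.07 between diets at day 4 and at 0.06 at day 10, and at -0.23 to 0.19 over all 6 pairs of groups. With the replicate block the count for age was 4925 and that for each comparison of IUGR with control at days 4 and 10 was 0. The block gave Cyp2f4 an adjusted p of 0.034 for age, and 0.457 at day 4 (Bpifa1 0.461).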
